A study of Mus musculus with 8 samples.

Results

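The small leucine-rich proteoglycans (SLRPs) were followed in fibro-adipogenic progenitors (FAPs), the interstitial connective tissue cells of skeletal muscle, during regeneration. The members were the 10 gene symbols Dcn, Bgn, Aspn, Fmod, Lum, Prelp, Omd, Ogn, Podn and Podnl1, taken by name from 55276 symbols in the deposited expression tables. All 10 were listed and all 10 passed the filter on low values in every comparison. Gene expression was measured by RNA-seq of GFP+ FAPs sorted from tibialis anterior muscle of mice aged 4 to 6 months, at 3 or 7 days post injury (dpi) by the freeze-pierce method. Ctrl cells were Osr1 flox/+ CAGG Cre+ and Osr1cKO cells were Osr1 flox/flox CAGG Cre+, with 2 libraries per genotype and day. CAGG-CreER is active in all cell types, and every mouse received tamoxifen on the day of injury and the 2 days after it. Recombination puts eGFP under control of the Osr1 locus, so the Ctrl cells had also lost 1 Osr1 allele. A 3 dpi library came from 1 mouse and a 7 dpi library from a pool of 4 mice, so day and pooling cannot be told apart.

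SLRPs are secreted proteins whose core is built of leucine-rich repeats and which, in many members, carries chondroitin, dermatan or keratan sulfate chains. They coat collagen fibrils, set fibril diameter and spacing, and bind growth factors such as TGF-beta. In muscle and tendon they are made mainly by fibroblasts, and decorin is known for its binding of TGF-beta and myostatin. The family is split into classes, of which class I (Dcn, Bgn, Aspn), class II (Fmod, Lum, Prelp, Omd), class III (Ogn) and class V (Podn, Podnl1) are covered here.

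Many of these genes stand side by side in the genome (mm10, GENCODE mouse release 21). On chromosome 10, Dcn (97479609 to 97518143) is followed on the plus strand by Lum (97565128 to 97572703) after 47.0 kb, and then by the class II gene Kera and the class III gene Epyc. On chromosome 13, Aspn (49544443 to 49567565), Omd (49582462 to 49592822) and Ogn (49608046 to 49624501) follow Ecm2 on the plus strand with gaps between 11.7 and 15.2 kb. These 3 members lie inside Cenpp, a gene of the opposite strand whose exons share 7 bases with Aspn and 0 bases with Omd and Ogn. On chromosome 1, Prelp (133910304 to 133921414, minus strand) and Fmod (134037254 to 134048277, plus strand) are 116 kb apart, and 9.68% of the exon bases of Prelp are shared with the antisense gene Gm15851, listed at 0.346 to 6.57 TPM. Podn is on chromosome 4 (108014791 to 108096445), Podnl1 on chromosome 8 (84125989 to 84132527) and Bgn on chromosome X (73483602 to 73495933). Whether the authors counted by strand is not given in the sources used here, so reads of the overlapping opposite-strand genes could not be separated.

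RefSeq (GRCm38.p6) gave promoters for 7 of the 10 members. The 250 bases before the start are shown for Fmod and Aspn, and for Omd and Ogn, the neighbours of Aspn. Between genotypes, Fmod had the smallest p by limma, at 7 dpi, and Aspn the largest log2 difference, at 3 dpi. Capitals mark CAGAC, a SMAD binding sequence, and TATAAA, on either strand, and both motifs were searched together with TGANTCA (AP-1) and GCTACTG (OSR). They are Fmod at chr1:134037004-134037253, Aspn at chr13:49544193-49544442, Omd at chr13:49582212-49582461 and Ogn at chr13:49607765-49608014, all on the plus strand.
Fmod: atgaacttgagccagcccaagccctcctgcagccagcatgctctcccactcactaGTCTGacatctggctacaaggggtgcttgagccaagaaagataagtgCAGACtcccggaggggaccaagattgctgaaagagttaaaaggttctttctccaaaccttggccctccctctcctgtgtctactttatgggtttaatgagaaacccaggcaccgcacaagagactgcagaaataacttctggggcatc
Aspn: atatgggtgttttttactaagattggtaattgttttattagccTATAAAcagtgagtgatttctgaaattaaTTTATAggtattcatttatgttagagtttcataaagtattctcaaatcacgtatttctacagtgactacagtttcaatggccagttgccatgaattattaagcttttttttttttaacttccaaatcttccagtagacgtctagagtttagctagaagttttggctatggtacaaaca
Omd: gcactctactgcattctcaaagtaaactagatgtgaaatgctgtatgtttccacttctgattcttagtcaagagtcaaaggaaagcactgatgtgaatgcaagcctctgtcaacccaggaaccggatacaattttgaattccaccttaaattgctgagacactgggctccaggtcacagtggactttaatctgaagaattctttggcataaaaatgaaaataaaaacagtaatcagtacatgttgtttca
Ogn: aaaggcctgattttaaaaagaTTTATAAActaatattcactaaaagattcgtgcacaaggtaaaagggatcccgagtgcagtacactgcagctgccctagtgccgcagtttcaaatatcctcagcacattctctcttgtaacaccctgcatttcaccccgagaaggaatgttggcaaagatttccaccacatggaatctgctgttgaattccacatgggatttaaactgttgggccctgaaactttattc
CAGAC was present in 42.2% of all 32851 promoter windows of this length and stood 195 and 148 bases before the start of Fmod. TATAAA was present in 12.4% of windows and stood 207 and 178 bases before the start of Aspn, and as a pair of overlapping matches 229 and 227 bases before that of Ogn. TGANTCA and GCTACTG, present in 6.75% and 3.03% of windows, were in none of the 4 windows shown. GC content was 51.2% for Fmod, 38.4% for Omd and 42.0% for Ogn, and lower still for Aspn, against a median of 52.4% over all windows.

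Depth, recovered from the tables as described with the processing, lay between 36516513 and 51096350 fragments per library. Osr1 stood at 105 and 91.0 TPM, the deposited unit of transcript abundance per length and depth, in Ctrl cells of 3 dpi and at 70.7 and 71.9 TPM in Osr1cKO cells, and at 67.6 and 71.6 TPM against 64.4 and 60.8 TPM at 7 dpi. It was lower in all Osr1cKO libraries, and this level counts any reads from parts of the locus that are not deleted. The 8 FAP markers summed to 19671 to 33216 TPM over the libraries, with Pdgfra between 197 and 365 TPM. They moved as well, since Ly6a was lower in Osr1cKO cells at 3 dpi (5407 and 4232 against 3058 and 2020 TPM) and 3 rose and 3 fell between the days in Ctrl cells. The 8 leukocyte markers summed to 25.4 to 84.4 TPM, with Ptprc at most 0.216 TPM and Lyz2 up to 36.1 TPM. Replicates differed more at 3 dpi than at 7 dpi, with a chi-square per gene of 204 (Ctrl) and 109 (Osr1cKO) against 21.5 and 26.5. The labels do not say that same-numbered libraries belong together.

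SLRP transcripts were abundant. Together the 10 genes took 0.729% ± 0.00838 (SD, n = 2) of all TPM in Ctrl and 0.747% ± 0.0741 in Osr1cKO cells at 3 dpi, and 1.23% ± 0.0670 and 1.197% ± 0.0816 at 7 dpi. Both 3 dpi groups lay below both 7 dpi groups, and at each day the ranges of the genotypes overlapped. Class I held 77.7% ± 2.91 of the SLRP transcripts in Ctrl cells at 3 dpi and 70.3% ± 0.286 at 7 dpi, while class II held 16.6% ± 3.14 and 20.8% ± 0.0762. In Osr1cKO cells class I held 80.9% ± 1.43 and 68.9% ± 1.54, and class II 12.5% ± 1.28 and 21.7% ± 1.84.

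**Figure D1:**
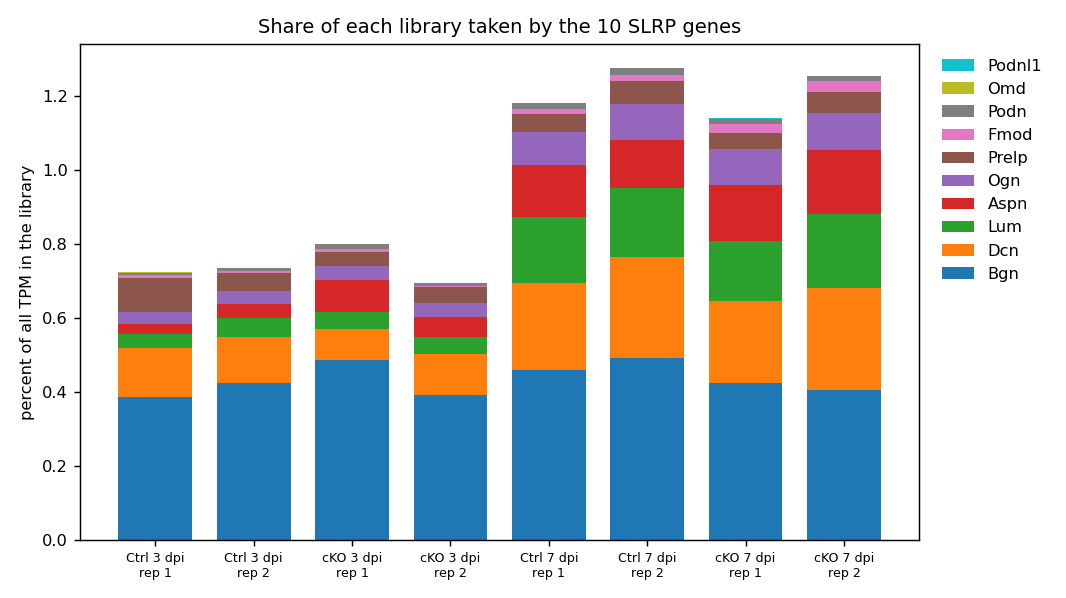
Stacked bars give the percent of all TPM in each of the 8 libraries that came from each SLRP gene, with Osr1cKO written as cKO. The 4 bars of 3 dpi are shorter than the 4 bars of 7 dpi, Bgn is the largest segment in every bar, and the segments of Lum, Aspn and Ogn are taller at 7 dpi.

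Bgn (biglycan), a class I proteoglycan with chondroitin or dermatan sulfate chains, was the most abundant member in every group. It ranked between 14 and 19 among all symbols in each library. Dcn (decorin) was next in every group, and its ranks ran from 101 to 178 at 3 dpi and from 30 to 39 at 7 dpi. In Ctrl cells at 3 dpi Prelp, Lum, Aspn and Ogn followed, with means of 714, 446, 331 and 330 TPM, and each neighbouring pair of these 4 overlapped in its library values. In Ctrl cells at 7 dpi the order below Dcn was Lum, Aspn, Ogn and Prelp at 1836, 1342, 932 and 541 TPM, and none of these neighbours overlapped. In Osr1cKO cells at 3 dpi Aspn came next after Dcn at 692 TPM, without overlapping Lum at 467 TPM. In Osr1cKO cells at 7 dpi Lum and Aspn, at 1824 and 1611 TPM, did overlap. Podn and Fmod formed a middle group between 35.5 and 289 TPM. Omd and Podnl1 were the least abundant, between 3.41 and 17.8 TPM, and rested on 97 to 607 fragments per library.

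**Figure D2:**
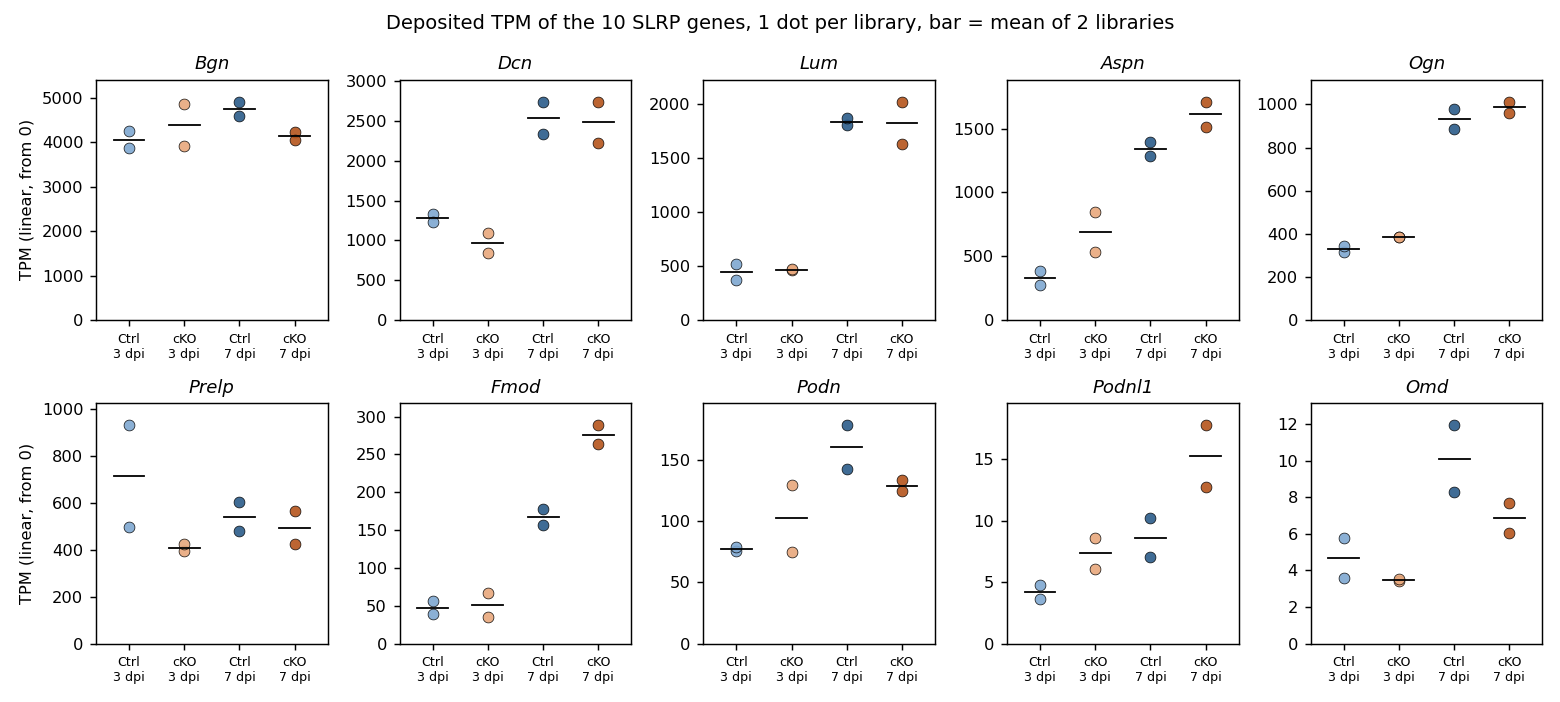
Each panel gives the deposited TPM of 1 SLRP gene on a linear axis from 0, with 1 dot per library and a bar at the mean of the 2 libraries of a group. Lum, Ogn, Aspn, Fmod, Dcn and Omd are higher in all 7 dpi libraries than in all 3 dpi libraries, and Bgn, Prelp, Podn and Podnl1 are not.

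The change from 3 to 7 dpi in Ctrl cells asks how SLRP expression moves as regeneration goes on when 1 Osr1 allele is kept. It was large for most members. The test was limma on log2(TPM + 1), and a call needed a Benjamini-Hochberg adjusted p below 0.05 with a fold above 1.2. By this rule 8 of 10 members rose and 0 fell. Of all 17371 genes tested, 21.3% rose and 24.1% fell by the same rule. The median log2 difference of the members was 1.09, against 0.02 over all genes.

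The class II and III members differed in how far they rose. Lum (lumican), a keratan sulfate proteoglycan that spaces collagen fibrils, stood at 371 and 521 TPM at 3 dpi and at 1805 and 1867 TPM at 7 dpi in Ctrl cells. The libraries of the days were far apart, with a log2 difference of 2.14 (SE 0.20, adjusted p = 0.000432). Ogn (osteoglycin or mimecan), a class III member, stood at 316 and 344 TPM and then at 888 and 977 TPM, a log2 difference of 1.57 (SE 0.12, adjusted p = 0.000248). Fmod (fibromodulin), which acts on fibril assembly and is prominent in tendon, stood at 55.9 and 39.5 TPM and then at 156 and 178 TPM, a log2 difference of 1.88 (SE 0.28, adjusted p = 0.00199). Omd (osteomodulin), known from bone matrix, was low throughout, at 5.78 and 3.56 TPM and then at 8.29 and 11.9 TPM, a log2 difference of 1.05 (SE 0.24, adjusted p = 0.0106).

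In class I the members parted. Aspn (asporin), which binds collagen and TGF-beta through a core without glycosaminoglycan chains, rose from 278 and 383 TPM to 1395 and 1289 TPM in Ctrl cells, a log2 difference of 2.11 (SE 0.26, adjusted p = 0.001). Dcn rose from 1332 and 1228 TPM to 2336 and 2740 TPM, a log2 difference of 1.06 (SE 0.20, adjusted p = 0.00461). Bgn was at 3860 and 4251 TPM and then at 4596 and 4916 TPM, and its log2 difference of 0.31 (95% interval -0.29 to 0.91, adjusted p = 0.355) did not pass the test. The ratio of Dcn to Bgn, which needs no scaling between libraries, was 0.345 and 0.289 in the Ctrl libraries of 3 dpi and 0.508 and 0.557 in those of 7 dpi.

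Of the remaining members, Podn (podocan) rose from 75.2 and 78.8 TPM to 142 and 178 TPM, a log2 difference of 1.12 (SE 0.25, adjusted p = 0.00942), and Podnl1 (podocan-like 1) rose from 4.77 and 3.68 TPM to 10.2 and 7.05 TPM, a log2 difference of 0.94 (adjusted p = 0.0268). Prelp, a class II member that binds collagen and the basement membrane proteoglycan perlecan, went its own way. It stood at 932 and 496 TPM at 3 dpi and at 480 and 603 TPM at 7 dpi, so the days overlapped. Its log2 difference was -0.26 (adjusted p = 0.459). It was 0.15 without Ctrl replicate 1 of 3 dpi and -0.69 (adjusted p = 0.0317) without Ctrl replicate 2 of 3 dpi. Some calls also depended on 1 library. Podnl1 lost its call without Ctrl replicate 2 of 3 dpi (adjusted p = 0.0963) or Ctrl replicate 1 of 7 dpi (adjusted p = 0.147), and Omd (adjusted p = 0.0741) and Podn (adjusted p = 0.0616) lost theirs without Ctrl replicate 2 of 7 dpi.

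The same change in Osr1cKO cells was fitted together with that in Ctrl cells. Here 7 of 10 members rose and 0 fell, while 18.2% of all genes rose and 21.9% fell, and the median log2 difference was 1.04 against 0.02 over all genes. Lum went from 464 and 469 TPM to 1627 and 2021 TPM, a log2 difference of 1.89 (SE 0.20, adjusted p = 0.000982). Ogn, at 383 and 387 TPM and then at 959 and 1014 TPM, rose by 1.29 on the log2 scale (SE 0.12, adjusted p = 0.000689). Both members thus had widely separated libraries in the mutant cells too. Fmod went from 66.5 and 35.5 TPM to 263 and 289 TPM, a log2 difference of 2.41 (SE 0.28, adjusted p = 0.00117). Dcn went from 848 and 1099 TPM to 2221 and 2745 TPM, a log2 difference of 1.29 (SE 0.20, adjusted p = 0.00272). The ratio of Dcn to Bgn was 0.175 and 0.281 in the Osr1cKO libraries of 3 dpi and 0.524 and 0.678 in those of 7 dpi.

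Aspn, which was higher in the mutant cells at 3 dpi, rose as well. It went from 847 and 537 TPM to 1512 and 1711 TPM, a log2 difference of 1.19 (SE 0.26, adjusted p = 0.0112). Omd and Podnl1 rose by 0.75 and 0.90 on the log2 scale (adjusted p = 0.0401 and 0.0348). Podn, at 130 and 74.5 TPM and then at 124 and 133 TPM, overlapped between the days and did not pass the test (log2 difference 0.32, adjusted p = 0.328). Bgn (log2 difference -0.14, adjusted p = 0.691) and Prelp (0.20, adjusted p = 0.584) did not pass either. Podn depended on 1 library, with a log2 difference of 0.72 (adjusted p = 0.0211) without Osr1cKO replicate 1 of 3 dpi and -0.10 without Osr1cKO replicate 2 of 3 dpi. The count of members called was 4 without Osr1cKO replicate 2 of 3 dpi, where Aspn, Omd and Podnl1 lost their calls. Omd lost its call without any 1 of the 4 Osr1cKO libraries (adjusted p from 0.0852 to 0.182). Aspn (adjusted p = 0.0641) also lost its call without Osr1cKO replicate 2 of 7 dpi, and Podnl1 (adjusted p = 0.180) without Osr1cKO replicate 1 of 7 dpi.

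**Figure D3:**
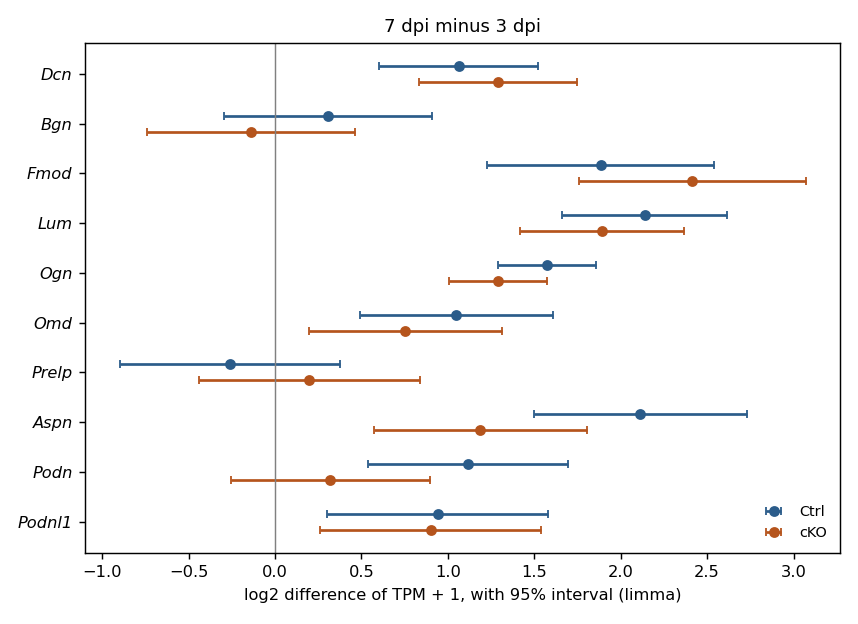
Points give the log2 difference of TPM + 1 between 7 and 3 dpi for each member in Ctrl and in Osr1cKO cells, with 95% intervals from limma. Lum, Fmod, Ogn, Dcn, Aspn, Omd and Podnl1 lie to the right of 0 with their whole interval in both genotypes. The intervals of Bgn and Prelp cross 0 in both, and that of Podn does so in Osr1cKO cells.

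Other transcripts moved with the day as well. The 6 tenocyte markers summed to 522 to 776 TPM in Ctrl and 1564 to 1765 TPM in Osr1cKO cells at 3 dpi, and to 2261 to 2487 TPM and 2914 to 3329 TPM at 7 dpi. All 6 rose in Ctrl and 5 of 6 in Osr1cKO cells, where 21.3% and 18.2% of all genes rose. Thbs4 made up most of the sum. The 6 myofiber markers summed to 5.403 to 10.8 TPM over the 3 dpi libraries and to 32.8 to 53.4 TPM over the 7 dpi libraries, and the 3 erythroid markers to 0 to 1.35 TPM and to 10.2 to 45.4 TPM. The sums of endothelial (17.2 to 44.5, then 46.4 to 71.1 TPM), leukocyte (25.4 to 31.5, then 48.6 to 84.4 TPM), muscle stem cell (60.9 to 112, then 117 to 148 TPM) and Schwann cell markers (2.13 to 4.02, then 6.16 to 15.9 TPM) did not overlap between the days either. The muscle stem cell sum was mostly Vcam1, which overlapped between the days (53.6 to 108, then 106 to 133 TPM). Itga7, Pax7, Myf5 and Myod1 did not overlap, but Pax7, Myf5 and Myod1 were at most 4.68 TPM. The endothelial sum was mostly Tek (14.9 to 25.4, then 36.3 to 58.4 TPM), and the Schwann cell sum mostly S100b. In bulk samples a change in the share of a cell type and a change in RNA per cell cannot be told apart, and the part of these transcripts in the SLRP differences was not tested.

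The comparison of Osr1cKO with Ctrl cells at 3 dpi asks what the loss of the second Osr1 allele does early after injury. Aspn and Podnl1 were higher in Osr1cKO cells. The call at this day needed an unadjusted p below 0.05 by limma with a fold above 1.2. By this rule 2 of 10 members were higher and 0 lower, against 2.38% and 3.89% of all 15699 genes tested. No gene passed an adjusted p below 0.1 by limma, where 985 passed the unadjusted rule, and limma-voom on recovered fragments also called 2 members at the unadjusted threshold. The median log2 difference was 0.09 for the members and 0.01 for all genes.

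Aspn stood at 278 and 383 TPM in Ctrl and at 847 and 537 TPM in Osr1cKO cells at 3 dpi. The groups did not overlap, and the log2 difference was 1.04 (SE 0.30, unadjusted p = 0.0172, adjusted p = 0.772 by limma). It stayed above 0 when any 1 library was left out, between 0.69 and 1.396, but missed the threshold without Ctrl replicate 1 (unadjusted p = 0.0679 by limma) or Osr1cKO replicate 1 (unadjusted p = 0.0656 by limma). Within libraries, the ratio of Aspn to Bgn was 0.0720 and 0.0902 in Ctrl and 0.175 and 0.137 in Osr1cKO cells.

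Podnl1 stood at 4.77 and 3.68 TPM against 8.64 and 6.07 TPM, a log2 difference of 0.67 (SE 0.26, unadjusted p = 0.0477, adjusted p = 0.784 by limma). Its groups did not overlap either, and the call was lost without Ctrl replicate 2 (0.52, unadjusted p = 0.141 by limma) or Osr1cKO replicate 1 (0.42, unadjusted p = 0.269 by limma). Osr1cKO replicate 1 held the highest value of 3 dpi for Aspn, Podnl1, Podn, Bgn and Fmod, and the lowest for Dcn, Prelp and Omd. Of the 5 tested tenocyte markers 2 were higher by the same rule, against 2.38% of all genes. They were Thbs4 (log2 difference 1.39, unadjusted p = 0.00276 by limma) and Kera (0.65, unadjusted p = 0.0293 by limma). Kera, itself an SLRP, was near the floor, at 0.106 and 0.103 TPM in Ctrl and 1.07 and 0.435 TPM in Osr1cKO cells. The part of these transcripts in the Aspn and Podnl1 differences was not tested.

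The other 8 members did not pass the test at 3 dpi. Prelp stood at 932 and 496 TPM in Ctrl and at 394 and 423 TPM in Osr1cKO cells, a log2 difference of -0.74 (95% interval -1.54 to 0.07, unadjusted p = 0.0652 by limma). This value was -0.30 without Ctrl replicate 1 and -1.19 (unadjusted p = 0.000943 by limma) without Ctrl replicate 2, so it rested largely on 1 Ctrl library. With all 8 libraries in 1 fit Prelp was called lower (-0.70, unadjusted p = 0.0349 by limma). Dcn stood at 1332 and 1228 TPM against 848 and 1099 TPM, a log2 difference of -0.41 (95% interval -0.91 to 0.10, unadjusted p = 0.0953 by limma). Both genes had all Osr1cKO libraries below all Ctrl libraries. In all, 3 members (Aspn, Ogn, Podnl1) had every Osr1cKO library above, and 3 (Dcn, Omd, Prelp) every Osr1cKO library below, the Ctrl libraries, while 18.2% and 18% of all genes did so in these directions. Fmod, Lum and Bgn overlapped, with log2 differences of 0.05, 0.08 and 0.10. Podn, at 75.2 and 78.8 TPM against 130 and 74.5 TPM, overlapped too, and its log2 difference of 0.35 became 0.77 (unadjusted p = 0.0133 by limma) without Osr1cKO replicate 2 and -0.07 without Osr1cKO replicate 1. Omd, with a log2 difference of -0.32, was at -0.60 (unadjusted p = 0.0415 by limma) without Ctrl replicate 2.

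At 7 dpi the member that differed most clearly in relation to its error was Fmod. The call at this day needed an adjusted p below 0.1 by limma with a fold above 1.2. Of the members 0 of 10 passed, against 0.0181% of 16578 genes higher and 0.0483% lower in Osr1cKO cells. At an unadjusted p below 0.05, Fmod and Podnl1 were higher and Omd and Podn lower, 2 of 10 in each direction, against 5.21% and 5.91% of all genes. limma-voom on recovered fragments called 1 member, Fmod, at the adjusted threshold (adjusted p = 0.0492). The median log2 difference was -0.16 for the members and 0.00 for all genes.

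Fmod stood at 156 and 178 TPM in Ctrl and at 263 and 289 TPM in Osr1cKO cells at 7 dpi. The mutant libraries lay well above the Ctrl libraries, with a log2 difference of 0.59 (SE 0.09, 95% interval 0.37 to 0.81, unadjusted p = 0.000729, adjusted p = 0.216 by limma). The value lay between 0.50 and 0.67 with any 1 library left out, and without Ctrl replicate 2 the adjusted p was 0.0881. With all 8 libraries in 1 fit, which shares the larger spread of 3 dpi, the difference was 0.61 with unadjusted p = 0.0648 by limma. Its class II companion Lum stood at 1805 and 1867 TPM against 1627 and 2021 TPM, so the ratio of Lum to Fmod was 11.5 and 10.5 in Ctrl and 6.18 and 7.00 in Osr1cKO cells. Lum itself overlapped between the genotypes (log2 difference -0.15, 95% interval -0.50 to 0.20). Of the tenocyte markers Scx, Tnmd and Mkx were higher at the unadjusted threshold, Tnmd at 64.9 and 141 TPM against 264 and 350 TPM. The summed levels of the 6 tenocyte markers, 2261 to 2487 against 2914 to 3329 TPM, did not overlap. Summed pericyte (208 to 455 against 601 to 722 TPM), leukocyte (48.6 to 51.5 against 65.7 to 84.4 TPM) and Schwann cell markers (6.16 to 7.33 against 8.26 to 15.9 TPM) were also higher in both Osr1cKO libraries, and summed myofiber markers were lower (51.9 to 53.4 against 32.8 to 35.5 TPM). The pericyte sum was mostly Acta2 (368 and 175 against 677 and 527 TPM), whereas Rgs5 overlapped. Endothelial sums overlapped (46.4 to 61.4 against 47.6 to 71.1 TPM), as did Tek, which made up most of them. Pecam1, Cdh5, Kdr and Tie1 did not overlap and were higher in Osr1cKO cells, at up to 6.25 TPM. In the leukocyte sum Cd14 (12.3 and 9.94 against 26.8 and 25.5 TPM) and Cd68 (12.5 and 13.7 against 15.6 and 17.4 TPM) did not overlap. The less abundant Csf1r and Ptprc did not overlap either and were higher in Osr1cKO cells, Ptprc at up to 0.216 TPM. Lyz2, Adgre1, Itgam and Mrc1 overlapped. The Schwann cell sum was mostly S100b. The part of these transcripts in the differences of Fmod, Podnl1, Omd and Podn was not tested.

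Podnl1 stood at 10.2 and 7.05 TPM in Ctrl and at 17.8 and 12.7 TPM in Osr1cKO cells at 7 dpi, a log2 difference of 0.63 (SE 0.24, unadjusted p = 0.0422, adjusted p = 0.381 by limma). Omd stood at 8.29 and 11.9 TPM against 6.06 and 7.68 TPM, a log2 difference of -0.60 (SE 0.20, unadjusted p = 0.0252, adjusted p = 0.342 by limma). These 2 genes are the least abundant members and lay in opposite directions. Podn stood at 142 and 178 TPM against 124 and 133 TPM, a log2 difference of -0.44 (SE 0.11, unadjusted p = 0.0102, adjusted p = 0.301 by limma). Podn was at -0.59 without Ctrl replicate 1 (adjusted p = 0.0684 by limma) and at -0.28 without Ctrl replicate 2 (adjusted p = 0.504 by limma), and with all 8 libraries in 1 fit its unadjusted p was 0.132. For Podnl1 the unadjusted p was 0.135 without Ctrl replicate 2 and 0.177 without Osr1cKO replicate 1 by limma, and for Omd it was 0.124 and 0.0952 without the same libraries. Omd also missed the unadjusted threshold without further scaling (unadjusted p = 0.0614 by limma), and Podnl1 with no filter (unadjusted p = 0.0769 by limma).

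The abundant class I members passed neither threshold at 7 dpi. Aspn stood at 1395 and 1289 TPM in Ctrl and at 1512 and 1711 TPM in Osr1cKO cells, a log2 difference of 0.13 (95% interval -0.17 to 0.43, unadjusted p = 0.319 by limma). Bgn, at 4596 and 4916 TPM against 4239 and 4051 TPM, had a log2 difference of -0.33 (95% interval -0.76 to 0.10, unadjusted p = 0.106 by limma). For Bgn this depended on the setting, since the unadjusted p was 0.0190 with robust eBayes, 0.0128 by limma-voom and 0.0416 with a filter at a mean TPM of 1 in limma. Dcn, Prelp and Ogn overlapped, with log2 differences of -0.17, -0.26 and -0.05, and the value of Ogn was 0.08 when TPM was not scaled further. Every Osr1cKO library was above the Ctrl libraries for 3 members (Fmod, Aspn, Podnl1) and below for 3 (Bgn, Omd, Podn), while 42.8% and 10.7% of all genes did so. These counts use the deposited TPM, in which the median difference of all genes was 0.104 higher on the log2 scale than in the scaled fit, and the log2 differences above are relative to the scaled median of 0.00.

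**Figure D4:**
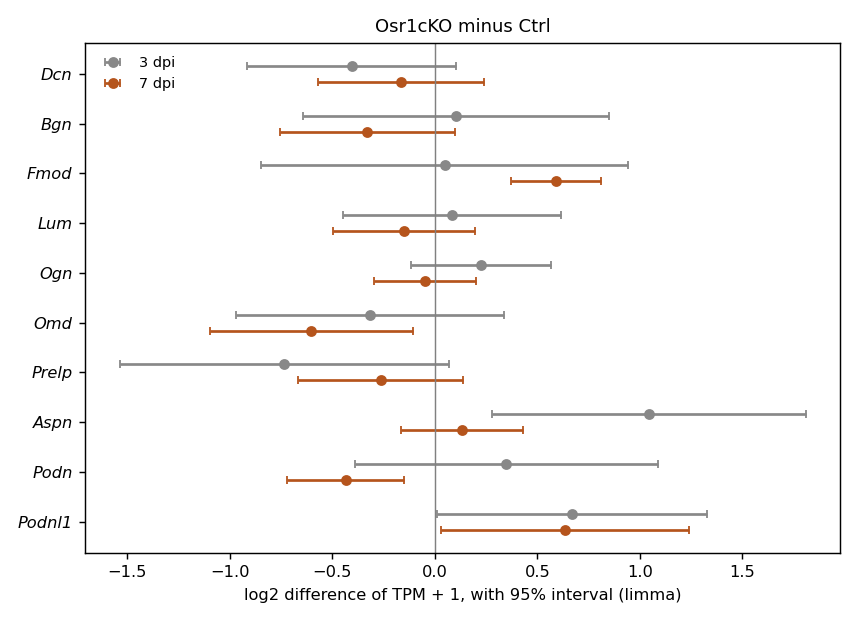
Points give the log2 difference of TPM + 1 between Osr1cKO and Ctrl cells for each member at 3 and at 7 dpi, with 95% intervals from limma. At 3 dpi the intervals of Aspn and Podnl1 lie to the right of 0, and at 7 dpi those of Fmod and Podnl1 lie to the right and those of Omd and Podn to the left.

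Whether the genotype difference itself changed between the days was tested as an interaction. No gene passed an adjusted p below 0.05 (0% of 17371 genes in either direction), and 0 of 10 members did. Before adjustment, by the rule used for genotypes at 3 dpi, 629 genes were positive and 548 negative, and limma-voom called 0 genes at the adjusted threshold. Aspn was the member under 0.05 before adjustment, with a genotype difference 0.92 lower on the log2 scale at 7 than at 3 dpi (95% interval of the interaction -1.80 to -0.05, unadjusted p = 0.0403, adjusted p = 0.724 by limma). Podn followed at -0.80 (unadjusted p = 0.0544, adjusted p = 0.744 by limma). Fmod, called by limma-voom at 7 dpi, had an interaction of 0.53 (95% interval -0.40 to 1.46), so its genotype differences at 3 and 7 dpi were not shown to differ.

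The neighbours of the members in the SLRP gene clusters were also measured. Kera (keratocan), between Lum and Epyc on chromosome 10, stood at 0.106 and 0.103 TPM in Ctrl and at 1.07 and 0.435 TPM in Osr1cKO cells at 3 dpi, where the lowest library had 3 fragments. At 7 dpi it stood at 26.0 and 36.3 TPM in Ctrl and at 39.2 and 70.8 TPM in Osr1cKO cells. It rose with the day in both genotypes (adjusted p = 0.00019 and 0.000428 by limma). Ecm2, the gene before Aspn on chromosome 13, rose from 24.0 and 23.6 TPM to 96.9 and 105 TPM in Ctrl cells, a log2 difference of 2.12 (SE 0.19, adjusted p = 0.000398), close in size to that of Aspn. Epyc (epiphycan), at the end of the chromosome 10 cluster, stayed at or below 1.81 TPM except in Osr1cKO cells at 7 dpi, where it stood at 3.57 and 5.49 TPM (log2 difference to Ctrl 1.32, unadjusted p = 0.00102, adjusted p = 0.222 by limma). Dcn and Lum in the same cluster overlapped between the genotypes on that day. Of the 9 other SLRP and SLRP-related genes, 8 were tested over the days. In Ctrl cells 3 rose and 1 fell, against 21.3% and 24.1% of all genes. In Osr1cKO cells 4 rose and 1 fell, against 18.2% and 21.9%. The gene that fell in both was Tsku (tsukushi), at 120 to 185 TPM over the libraries of 3 dpi and 76.7 to 87.02 TPM over those of 7 dpi.

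**Figure D5:**
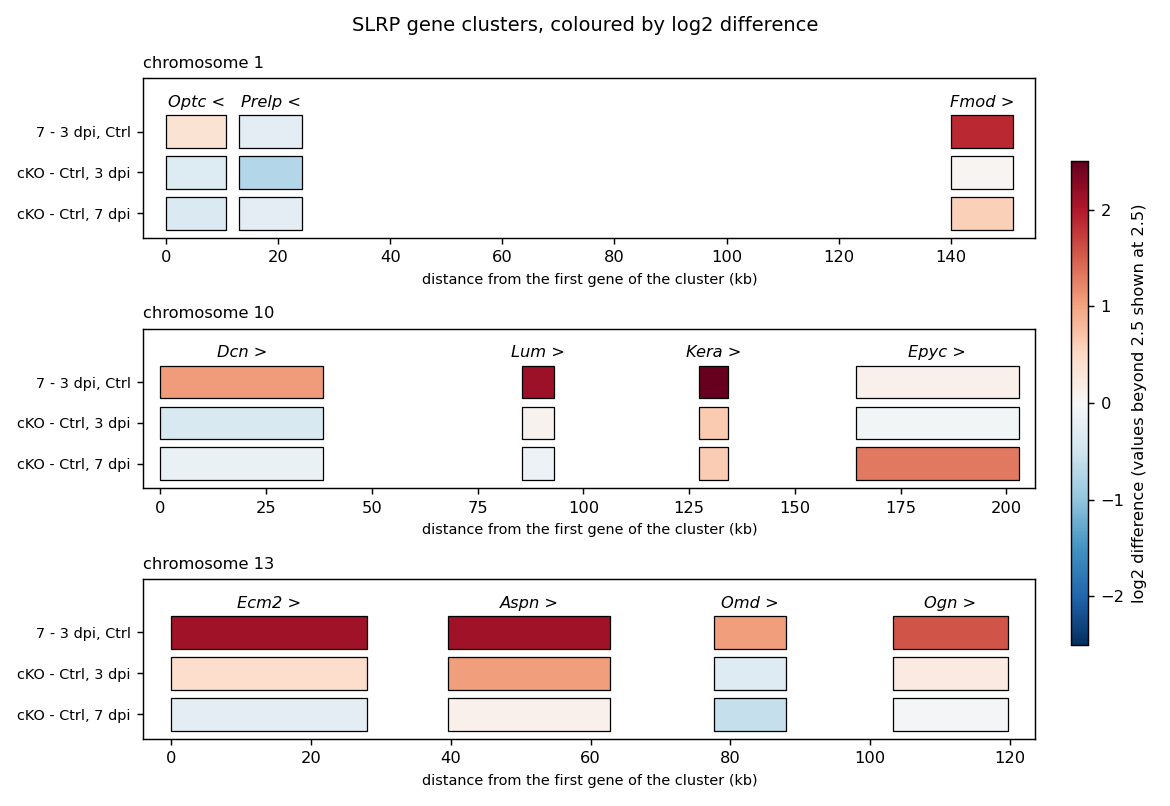
Boxes give the extent of each gene in the 3 SLRP clusters as distance in kb from the first gene, the signs > and < after a name give the plus and minus strand, and colour gives the log2 difference between days in Ctrl cells and between genotypes at each day. Lum, Kera, Ecm2, Aspn and Fmod have the darkest red in the row of the days, with Kera beyond the end of the scale, while the rows of the genotypes differ from gene to gene within each cluster.

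Genes that build the sugar chains of SLRPs moved in both directions. Of 17 genes for the linkage region and precursor supply, 2 rose and 3 fell with the day in Ctrl cells and 0 rose and 5 fell in Osr1cKO cells. Over all genes 21.3% rose and 24.1% fell in Ctrl and 18.2% rose and 21.9% fell in Osr1cKO cells. Xylt1, which attaches the first xylose to the core protein, rose in Ctrl cells (log2 difference 0.64, adjusted p = 0.0115), and Uxs1, which makes UDP-xylose, fell in both (-0.54 and -0.51, adjusted p = 0.00478 and 0.00719). Of 16 chondroitin and dermatan sulfate genes, 3 rose and 5 fell in Ctrl and 2 rose and 6 fell in Osr1cKO cells. The sulfotransferase Chst7 went from 15.03 and 20.02 TPM to 5.13 and 4.68 TPM in Ctrl cells, whereas the synthase Chsy3 went from 6.43 and 6.84 TPM to 14.2 and 12.9 TPM. Of the 10 keratan sulfate genes tested over the days, 1 rose and 3 fell in Ctrl and 2 rose and 1 fell in Osr1cKO cells, with the galactosyltransferase B4galt4 higher at 7 dpi in both (log2 difference 1.08 and 0.68, adjusted p = 0.00208 and 0.0146).

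Between genotypes at 3 dpi, Chst11 and Chsy3 of the chondroitin sulfate genes were higher in Osr1cKO cells (log2 difference 0.59 and 0.72, unadjusted p = 0.00651 and 0.0185 by limma) and 0 of 16 were lower, against 2.38% of all genes higher and 3.89% lower. Pxylp1, a xylose phosphatase of the linkage region, was the 1 of 17 linkage and precursor genes that was higher, and B3gnt2 the 1 of 9 keratan sulfate genes that was lower. At 7 dpi no gene of these 3 lists passed the adjusted threshold. At the unadjusted one 2 of 17, 2 of 15 and 2 of 9 were higher and 0 of each lower, against 5.21% and 5.91% of all genes.

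Of the collagens that SLRPs bind, 3 of 12 rose with the day in Ctrl cells and 0 fell, against 21.3% and 24.1% of all genes, led by Col14a1, a fibril-associated collagen, from 140 and 241 TPM to 807 and 1006 TPM (log2 difference 2.37, adjusted p = 0.000669). In Osr1cKO cells Col14a1 was the 1 of 12 that rose, where 18.2% of all genes did. Between genotypes at 3 dpi 1 of 12 collagens was higher and 1 lower, against 2.38% and 3.89% of all genes. Col12a1, a related fibril-associated collagen, was higher in Osr1cKO cells at 3 dpi, at 268 and 256 TPM against 464 and 373 TPM (log2 difference 0.66, unadjusted p = 0.0109 by limma). Col2a1, the fibrillar collagen of cartilage, was lower (-0.37, unadjusted p = 0.043 by limma). It was near the floor at 3 dpi, at 0.756 and 0.612 TPM in Ctrl and 0.333 and 0.273 TPM in Osr1cKO cells. Of the 17 genes that process or cleave SLRPs, 8 rose and 1 fell in Ctrl cells, against 21.3% and 24.1% of all genes. Mmp14, a membrane-bound metalloproteinase, rose by 1.29 on the log2 scale (adjusted p = 0.00161), and Adamts4, a proteoglycan-cleaving protease, by 1.19 (adjusted p = 0.000235). Tpst2, which sulfates tyrosines of secreted proteins, fell from 62.6 and 63.0 TPM to 30.8 and 29.1 TPM. In Osr1cKO cells 5 of 17 rose and 1 fell, against 18.2% and 21.9% of all genes. Adamts4 was higher in Osr1cKO cells at 3 dpi (log2 difference 0.37, unadjusted p = 0.0281 by limma), and at 7 dpi its log2 difference was -0.60 (unadjusted p = 0.000283, adjusted p = 0.149 by limma). Of 21 receptors and growth factor partners, 4 rose and 1 fell with the day in Ctrl and 7 rose and 2 fell in Osr1cKO cells. Over all genes 21.3% rose and 24.1% fell in Ctrl and 18.2% rose and 21.9% fell in Osr1cKO cells. Among the partners that rose were Tgfb3 in Ctrl cells (log2 difference 1.99, adjusted p = 0.00129) and Tlr4, a receptor for soluble Bgn, in both (0.77 and 0.72, adjusted p = 0.00971 and 0.0146). At 3 dpi 2 of 20 receptors and partners tested were higher in Osr1cKO cells, against 2.38% of all genes. They were Tgfb2 and Tgfb3 (log2 difference 0.53 and 0.86, unadjusted p = 0.0258 and 0.0424 by limma).

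The members also differed in how alike their profiles were. Over the 8 libraries, a small number that falls into 4 groups, Lum and Ogn had the highest Pearson r of log2(TPM + 1) among member pairs, 0.991, and Prelp and Aspn the lowest, -0.415. The values for member pairs use deposited TPM, whereas those that follow use scaled TPM and are each the highest among all genes tested. Among all genes tested, the closest profile over 8 libraries was that of Adamts15 for Dcn (r = 0.997), Zfp317 for Lum (0.997), Sugp2 for Fmod (0.994), Eny2 for Aspn (0.990) and Npr1 for Prelp (0.986). For Bgn it was Dchs1 (0.946), for Ogn Gm20900 (0.998), for Omd Carmil3 (0.994), for Podn Apba1 (0.981) and for Podnl1 Ice1 (0.974).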

How the data were processed

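RNA-seq was done on 8 libraries of sorted FAPs. The authors mapped the stranded read pairs with STAR to mm10, normalised fragment counts with DESeq2 and deposited TPM per gene symbol. The counter, its annotation and its use of strand are not given in the sources used here. The labels name a HiSeq instrument and the methods also a NovaSeq, without the day of each.

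Of 55385 entries, the 109 further entries of 106 repeated symbols were left out. Exon lengths of GENCODE mouse release 21 (GRCm38, the assembly of mm10) turned TPM back into fragments. Below 50 fragments, 98.7% to 98.9% of the results lay within 0.02 of whole numbers. Genes with 10 fragments in 2 libraries and 15 in all were tested, and symbols without a length at a mean TPM of at least 1. Libraries were scaled by trimmed mean (30%), and log2(TPM + 1) was tested with limma (lmFit, eBayes with trend), which understates changes of low genes. Genotypes were compared within a day on 4 libraries, and days and the interaction in 1 fit of all 8. The rules for calls within a day follow the study's methods. Intervals are 95% intervals of limma, and p-values measure the spread between libraries only. Text values are deposited TPM, and mean ± SD refers to 2 libraries.

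The members and gene lists were chosen with earlier results of these data known. Besides the members and their neighbours, the genes named were Osr1 and, per list and comparison, at most 3 of smallest p among those called with libraries that did not overlap. Marker genes are named beside the results they move with. The tests were checked on simulated data, scored by adjusted p. There limma on log2(TPM + 1) made more false calls than its adjusted p allows in the comparisons of genotypes within a day. limma-voom came closer to the allowed share. The simulation used the same setting for the spread between libraries for all genes and days, unlike the data, where replicates differed more at 3 dpi. The p-values of these comparisons may thus be too small, but for the data this was not tested. Alternatives were other scalings, pseudocounts, filters and thresholds, robust eBayes, limma-voom, other sets of libraries, a replicate block and each library left out. No amino acid sequence was used. The work used Python 3.11.15 (NumPy 2.4.6, pandas 2.3.3, matplotlib 3.10.9) and limma 3.58.1 in R 4.3.3.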

Additional observations from a re-analysis of the deposited data

Results flagged for a closer look

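The genotype difference of Aspn differed between the 2 days by an unadjusted test. By limma, 1 of 10 members passed an unadjusted p below 0.05 with a fold above 1.2. Of all 17371 genes, 629 passed this rule as positive and 548 as negative. Aspn was higher in Osr1cKO than in Ctrl cells by 1.04 on the log2 scale at 3 dpi and by 0.13 at 7 dpi, and the interaction was -0.92 (SE 0.37, unadjusted p = 0.0403, adjusted p = 0.724 by limma). It failed the adjustment over all genes, and the unadjusted p also missed 0.05 with the replicate block (unadjusted p = 0.092 by limma), without further scaling (unadjusted p = 0.0576 by limma) and with no filter (unadjusted p = 0.0592 by limma). In deposited TPM, the Osr1cKO libraries lay above the Ctrl libraries at both days. This held for 18.2% of all genes at 3 dpi and for 42.8% at 7 dpi. At 7 dpi the difference of Aspn did not pass the test (unadjusted p = 0.319 by limma).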

How the results depend on the processing

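At 3 dpi the count of genes called was 985 and became 1802 with all 8 libraries in 1 fit and 0 at an adjusted p below 0.1, and it ranged from 410 to 2800 with 1 library left out. The count of SLRPs called was 2 and became 1 with no filter, 3 with all 8 libraries in 1 fit, 0 at an adjusted p below 0.1, and 0 to 3 with 1 library left out. At 7 dpi 11 genes were called, against 0 without further scaling, 0 with a filter at a mean TPM of 1, 0 with no filter, 0 with all 8 libraries in 1 fit, 188 by limma-voom, 1843 at an unadjusted p below 0.05, and 5 to 314 with 1 library left out. The SLRPs called at 7 dpi were 0, against 1 by limma-voom, 4 at the unadjusted threshold and 0 to 1 with 1 library left out. Genes called between days ranged from 4691 to 8142 in Ctrl and 3777 to 8214 in Osr1cKO cells with 1 library left out, and SLRPs called in Osr1cKO cells from 4 to 7. With no filter the SLRPs called between days were 7 in Ctrl, where Podnl1 was lost (adjusted p = 0.0745 by limma), and 5 in Osr1cKO cells, where Omd and Podnl1 were lost (adjusted p = 0.0932 and 0.0942 by limma). The interaction called 0 genes, 3 with a pseudocount of 0.1, 1 with the filter at a mean TPM of 1, 30 with no filter and 0 to 69 with 1 library left out. Without further scaling the log2 difference of Ogn at 7 dpi was 0.082 and the interaction of Podnl1 was 0.088, and both signs turned. Signs also turned with 1 library left out, where log2 differences at 3 dpi ranged from -0.073 to 0.28 for Bgn, -0.42 to 0.51 for Fmod, -0.17 to 0.33 for Lum and -0.069 to 0.77 for Podn, and at 7 dpi from -0.11 to 0.0099 for Ogn. Between days they ranged from -0.69 to 0.15 for Prelp in Ctrl cells and, in Osr1cKO cells, from -0.31 to 0.024 for Bgn and -0.10 to 0.72 for Podn, and the interaction from -0.53 to 0.037 for Lum and -0.29 to 0.22 for Podnl1. The causes were not tested.

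The replicate block gave 27 genes at 7 dpi, 911 at 3 dpi, and 2 and 0 SLRPs at 3 and 7 dpi. Same-numbered libraries did not deviate together (correlation -0.130 at 3 dpi and 0.0642 at 7 dpi), so the numbers were not taken to pair them, and the block for days left 8 SLRPs called in Ctrl and 6 in Osr1cKO cells. The crossed pairing at 3 dpi, chosen after seeing the data, called 1194 genes and 2 SLRPs, 1 higher and 1 lower. Between days in Ctrl cells 3708 genes rose and 4184 fell, and 3246 and 4690 without further scaling. Over the log2 differences of the SLRPs, settings other than leaving out a library kept direction and side of the threshold in 88 of 90 at 3 dpi, 88 of 90 at 7 dpi, 89 of 90 between days in Ctrl and 87 of 90 in Osr1cKO cells. At 7 dpi 0 of 10 members passed the adjusted threshold in the main fit, so a member could change sides there only by gaining a call. Changes at the unadjusted threshold are not in this tally for 7 dpi. Depth limits mainly Omd and Podnl1, the members with the fewest fragments.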
